A study of Mus musculus with 11 samples.

Results

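The proximal flank of an exchanged interval of mouse chromosome 13 was examined by ATAC-seq, which counts cuts made by the Tn5 transposase in open DNA. Members were all accessible regions of the deposited count table on chromosome 13 that start from 58 Mb up to 65 Mb, chosen by position alone. They numbered 840 of the 248336 regions of the table and of the 11979 on chromosome 13. The edgeR filter on low counts kept 839 of the 840, and all counts of changed members below are over these 839.

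The 11 libraries stand for 4 mouse embryonic stem cell lines, each 1 line of its strain. B6 was the C57BL/6J line B6 5-1 and D2 the DBA/2J line D2 5-5, with 3 libraries each. B6-13D2 was line QJ 6-1 of strain B6.D2-(rs30079041-rs51756099)/Bakr, a B6 mouse strain with a D2 interval on chromosome 13, with 2 libraries. D2-13B6 was line XE 2-4 of a D2 strain with a B6 interval, with 3 libraries. Its samples carry the strain name D2.B6-(rs29224292-rs13469455)/Bakr, whereas the series design gives rs51756099 as the distal marker, and the labels name different proximal markers for the congenic strains. All lines shared a medium with 15% serum, LIF, the MEK inhibitor PD0325901 at 1 µM and the GSK3 inhibitor CHIR99021 at 3 µM. Sex, passage and culture day were not used here. The libraries are named technical replicates, so errors and p-values describe the spread between libraries of 1 line, and strain and cell line cannot be told apart.

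A congenic strain is made by backcrossing, so that a chosen interval comes from a donor strain while the rest of the genome comes from the recipient. At the ends of the interval a chromosome passes from recipient to donor sequence, at a point that is known only to lie between the nearest typed markers. Accessible regions whose openness depends on a nearby sequence difference can show which strain's copy a line carries. Regions governed by factors encoded outside the interval can instead follow the background. The genes of the stretch include the Hedgehog receptor gene Ptch1 and co-receptor gene Gas1, the Fanconi anaemia gene Fancc, the gluconeogenic genes Fbp1 and Fbp2, a cluster of placental cathepsin genes and families of zinc finger genes.

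Sequences are shown for some members whose accessibility changed with the interval in both lines. A repeated word or the similarity between copies is visible in part of them. All are GRCm38 reference sequence, which is that of C57BL/6J, and members keep the coordinates of the deposited table. The region in an intron of Golm1, which encodes a Golgi membrane protein, had the most reads among these members. Its central 200 bases, chr13:59656769-59656968 on the plus strand, are given without capitals.
Golm1 intron: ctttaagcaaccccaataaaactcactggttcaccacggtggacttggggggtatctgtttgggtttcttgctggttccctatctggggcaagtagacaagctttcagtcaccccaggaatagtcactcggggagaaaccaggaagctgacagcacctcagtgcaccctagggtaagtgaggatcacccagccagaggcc
The region in an intron of the predicted gene Gm31218 was the first on the distal side of the switch in both lines. In its central 200 bases, chr13:64507316-64507515 on the plus strand, capitals mark 9 copies of AGAGAGAGGAGG, one of its most repeated 12-base words. This word, searched on both strands, was present in 0.127% of the 11776 windows of the same length on chromosome 13.
Gm31218 intron: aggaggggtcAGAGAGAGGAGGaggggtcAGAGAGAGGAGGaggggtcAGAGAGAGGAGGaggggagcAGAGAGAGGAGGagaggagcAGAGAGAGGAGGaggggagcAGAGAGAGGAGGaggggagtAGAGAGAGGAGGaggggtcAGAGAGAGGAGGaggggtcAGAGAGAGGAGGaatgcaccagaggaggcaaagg
The region near Gm7065 was the only one of the distal changed members that was higher with the D2 interval, and 99.5% of its 31-base words are unique in the genome. Its central 200 bases were chr13:64726415-64726614 on the plus strand, again without capitals.
Near Gm7065: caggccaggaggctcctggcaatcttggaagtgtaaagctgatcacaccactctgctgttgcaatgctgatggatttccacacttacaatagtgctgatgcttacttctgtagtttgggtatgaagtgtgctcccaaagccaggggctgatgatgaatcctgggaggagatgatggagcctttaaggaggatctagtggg
The last sequences belong to 2 regions near the distal end of the stretch that are almost the same. They align over 234 bases without a gap, chr13:64973918-64974151 on the plus strand and chr13:64996153-64996386 on the minus strand, and capitals mark the 2 bases at which they differ.
Proximal copy: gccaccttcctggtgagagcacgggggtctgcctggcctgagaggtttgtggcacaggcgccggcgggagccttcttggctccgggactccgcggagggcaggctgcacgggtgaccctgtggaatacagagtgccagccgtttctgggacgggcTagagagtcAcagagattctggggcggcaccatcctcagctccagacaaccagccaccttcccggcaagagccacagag
Distal copy: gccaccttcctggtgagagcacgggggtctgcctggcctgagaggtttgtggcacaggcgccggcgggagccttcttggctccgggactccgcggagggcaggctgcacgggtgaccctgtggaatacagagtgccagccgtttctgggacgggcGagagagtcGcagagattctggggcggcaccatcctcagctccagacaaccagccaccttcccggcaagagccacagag
A read that lies within these 234 bases and misses both capitals has the same reference sequence at both places. These 2 regions and one more member, chr13:64996764-64997485, share stretches of 93.9% to 94.7% identity over 227 to 228 bases, so the 3 are not independent measurements.

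Few members changed in the exchange on the B6 background. In B6-13D2 against B6, 23 of 839 members changed, 7 higher and 16 lower, which is 2.74% against 0.474% of all regions tested (edgeR quasi-likelihood test, Benjamini-Hochberg adjusted p under 0.05). Of all regions tested, 0.139% were higher and 0.335% lower. In all 23, the normalised values of the B6-13D2 and B6 libraries did not overlap, which the call itself favours, so it is no further support. The median log2 fold change over all members was -0.03, against -0.01 over all regions tested. Of the 23, 8 lay in the last 500 kb of the stretch, which is 25% of 32 members there, and 15 lay before it, which is 1.86% of 807. This cut lies at the switch given below, which was read from the same B6-13D2 libraries. The 2 shares are thus a description and no separate support for the switch. Without B6-13D2 replicate 1 the count of changed members was 11, without B6-13D2 replicate 2 it was 10, and without B6 replicate 3 it was 14. Chromosome 13 outside 58 to 70 Mb had 51 changed regions of 10412, or 0.490%. In bulk ATAC-seq, a smaller share of cells with an open region and a smaller opening in every cell cannot be told apart.

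The exchange on the D2 background gave many more changed members, as did all of chromosome 13. In D2 against D2-13B6, 333 members changed, 222 higher and 111 lower in D2, which is 39.7% against 23.7% of all regions tested (8.53% higher, 15.2% lower). The share on chromosome 13 outside 58 to 70 Mb was 38.9%, so the members were close to the level of their chromosome. The median log2 fold change was 0.35 over the members, 0.38 over chromosome 13 outside 58 to 70 Mb and 0.04 over all regions tested, so chromosome 13 as a whole was lower in D2-13B6 than in D2. The direction of this comparison rests on the scaling. With TMM factors from chromosome 13 outside 58 to 70 Mb, which centre out a chromosome-wide shift, 100 members were higher and 180 lower, whereas total counts gave 294 higher and 91 lower and RLE size factors gave 182 and 120. B6-13D2 against B6 gave 23, 23 and 21 members under these alternatives.

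**Figure D1:**
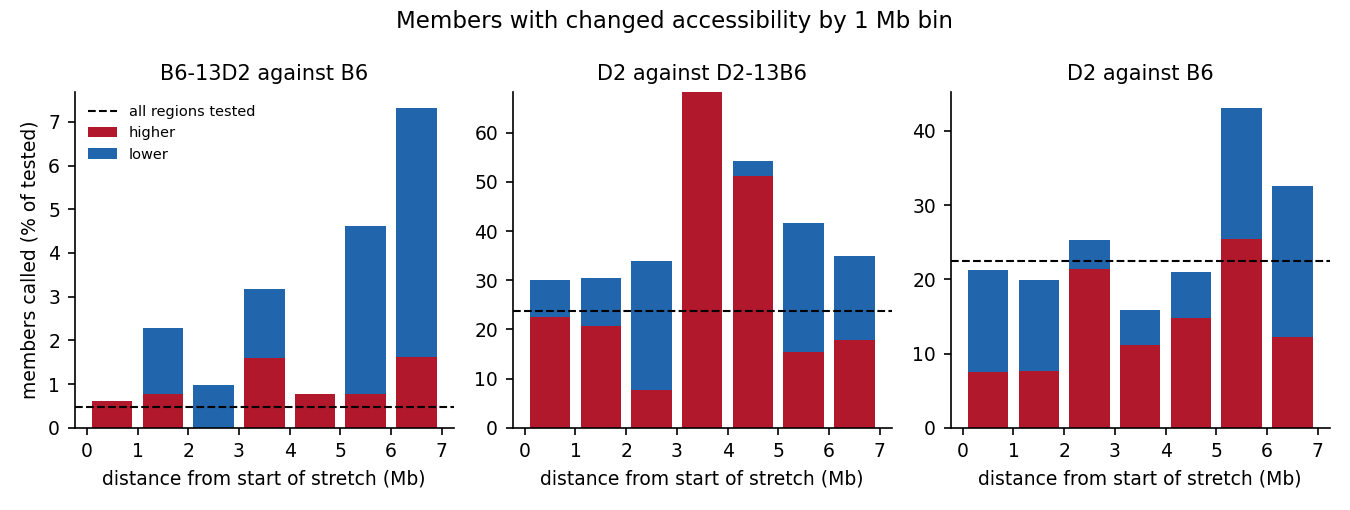
Share of tested members called changed (adjusted p under 0.05) in each 1 Mb bin, with distance from the start of the stretch on the x axis, for B6-13D2 against B6, D2 against D2-13B6 and D2 against B6. Red is higher and blue lower in the first-named line, and the dashed line is the share over all 246840 regions tested. In B6-13D2 against B6 the last bin is the highest, at 7.32%, and in D2 against D2-13B6 the bin from 61 to 62 Mb is, at 68.3%.

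The D2-13B6 libraries stood apart from the others in ways that touch every comparison with them. All 9 embryonic stem cell marker genes (Pou5f1, Nanog, Sox2, Zfp42, Esrrb, Klf4, Tfcp2l1, Dppa5a and Tdgf1) had accessible promoter regions. Their summed accessibility was 236 to 275 CPM, the read count scaled to library size, in D2-13B6 and 339 to 388 in the other libraries. The mean of 8 of these genes was lowest in D2-13B6, whereas Klf4 was highest there, at 69.2 CPM against 52.1 in D2, the next highest. Fibroblast marker promoters, 6 of 7 with a region and none at Col3a1, summed to 121 to 166 CPM in D2-13B6 and 63 to 90.9 elsewhere. Endoderm markers, 5 of 5, gave 80.6 to 97.1 CPM over all libraries, and trophoblast markers, 4 of 5 with none at Tpbpa, gave 40.3 to 51.2 in D2-13B6 and 55.8 to 71.9 elsewhere. The part of these differences in the results below was not tested. Total counts were 15198496 to 27293140 in B6, 18807653 to 20022534 in B6-13D2, 29172484 to 43042955 in D2-13B6 and 34945034 to 39770267 in D2.

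The strain comparison supplied the regions that can tell the strains apart. In D2 against B6, 219 members changed, 118 higher and 101 lower in D2, or 26.1% against 22.5% of all regions tested (13.7% higher, 8.8% lower). Total counts turned the majority, with 101 higher and 145 lower, and chromosome 13 TMM factors gave 104 and 109. Between the lines that carry the B6 interval on different backgrounds, D2-13B6 against B6, 468 members changed, 137 higher and 331 lower, or 55.8% against 41.7% of all regions tested (21.6% higher, 20.1% lower). Between the lines that carry the D2 interval, D2 against B6-13D2, 158 changed, 101 higher and 57 lower, or 18.8% against 18.8% (11.6% higher, 7.24% lower). The excess of lower members in D2-13B6 against B6 also depended on scaling, since chromosome 13 TMM factors gave 180 higher and 188 lower. For D2 against B6-13D2, total counts gave 83 higher and 93 lower, and the count fell to 74 without B6-13D2 replicate 1 and 75 without B6-13D2 replicate 2. No comparison changed 292 of the 839 members.

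Where each line passed from one strain's pattern to the other was read from 87 informative members, those that changed in D2 against B6 by at least 2-fold with library values that did not overlap. This was 10.4% of the members, against 9.05% of all regions tested. Each congenic line was placed between the strains on the log2 CPM scale, with 0 at the B6 mean and 1 at the D2 mean, and called D2-like above 0.5. No value of a congenic line entered this rule, although all 11 libraries shared the estimate of the spread. A fit of the B6 and D2 libraries alone, added after the data were seen, gave 89 informative members and the same boundary in both lines. The switch is the boundary between neighbouring informative members with the fewest members on the wrong side. No test was made of it.

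Both lines switched between the same neighbouring informative members, which start at 64474143 and 64507069 and both lie in an intron of Gm31218. In B6-13D2, 23 of 77 informative members before this boundary were D2-like, with a median position of 0.22, and 9 of 10 after it were, with a median of 1.08. In D2-13B6 the order was turned around, with 63 of 77 D2-like before the boundary (median 1.36) and 2 of 10 after it (median 0.41). Elsewhere in the genome, off chromosome 13, 21035 informative regions placed B6-13D2 at a median of 0.07 with 13.0% D2-like, and D2-13B6 at 1.29 with 91.2% D2-like. The proximal members of the stretch thus sat near each line's own background, and the distal ones had a median near D2 in B6-13D2 and between the strains in D2-13B6.

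The boundary was the same in each B6-13D2 library but not in each D2-13B6 library. It left 24 of 87 informative members on the wrong side in B6-13D2, and boundaries with 1 more wrong ran from 63770886 to 64588612. Either library alone gave that boundary. In D2-13B6 it left 16 on the wrong side, and the range ran from 64421971 to 64927874. Replicate 2 of D2-13B6 alone gave the same boundary, whereas replicate 3 alone gave 64973271 and replicate 1 alone gave 64973917 as the first member past it, the latter tied with 1 other boundary. Without D2-13B6 replicate 2 the boundary moved to 64973271, and with total counts it moved to 64927874.

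**Figure D2:**
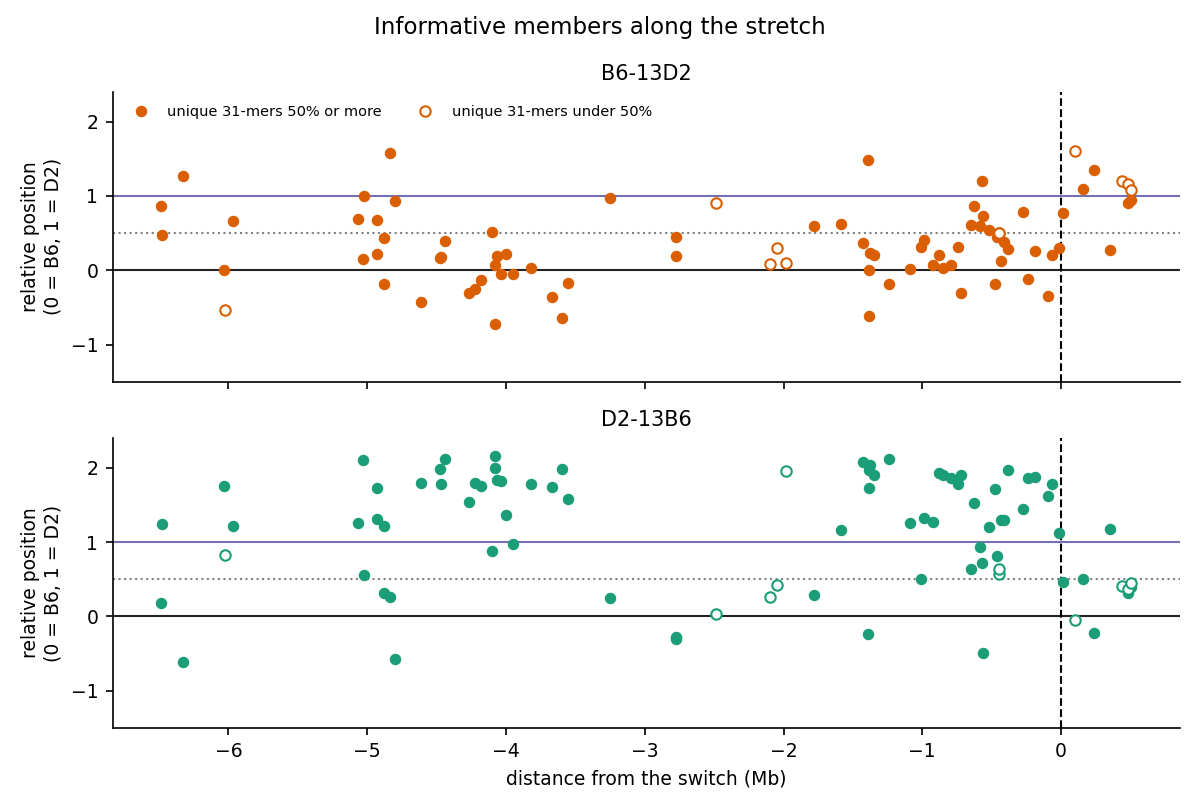
Position of each line between B6 (0) and D2 (1) at the 87 informative members, against distance in Mb from the switch at 0 (dashed line), with B6-13D2 above and D2-13B6 below. Open circles are members in which under 50% of 31-base words are unique in the genome, and the dotted line is the midpoint of 0.5. After the switch 9 of 10 B6-13D2 points lie above 0.5 and 8 of 10 D2-13B6 points lie at or below it.

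Leaving out members with little unique sequence kept the boundary in B6-13D2 and left it tied in D2-13B6. With the 76 informative members in which at least 50% of 31-base words are unique, 64507069 was again the first member past it in B6-13D2. In D2-13B6 it was 1 of 3 boundaries with equally few members on the wrong side, the others having 64726392 and 64973271 as the first member past them. This alternative was chosen after the data were seen. Taken at 64507069, 20 of 70 were D2-like in B6-13D2 before it and 5 of 6 after it. In D2-13B6 the counts were 59 of 70 and 2 of 6. With a minimum of 4-fold between the strains only 9 informative members remained, the first being the Golm1 intron at 59655360. The boundary with the fewest on the wrong side then had all 9 past it in both lines, so no switch was found within the stretch.

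The members on both sides of the boundary showed the change at single regions. The proximal one, chr13:64474143-64474788 in an intron of Gm31218, gave 2.13, 2.26 and 2.23 CPM in B6 and 1.09, 0.750 and 0.974 CPM in D2. It gave 1.59 and 1.84 CPM in B6-13D2 and 1.01, 0.515 and 1.10 CPM in D2-13B6, so that B6-13D2 lay nearer to B6 and D2-13B6 among the D2 libraries. It changed in neither exchange (log2 fold change -0.36, adjusted p = 0.89, and 0.10, adjusted p = 0.86).

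The tandem repeat region chr13:64507069-64507761, on the distal side, followed the interval. It gave 3.59, 3.17 and 4.25 CPM in B6, 1.14 and 0.947 CPM in B6-13D2, 2.34, 2.03 and 1.10 CPM in D2-13B6 and 0.674, 0.776 and 0.659 CPM in D2. Both groups with the D2 interval were below every B6 library, while D2-13B6 replicate 3 lay within the B6-13D2 range and its other libraries above it. The log2 fold change was -1.81 ± 0.32 (SE) in B6-13D2 against B6 (adjusted p = 0.000249) and -1.38 in D2 against D2-13B6 (adjusted p = 5.92e-05).

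All 8 changed members of the last 500 kb in B6-13D2 against B6 changed with the same sign in D2 against D2-13B6, and 7 were lower with the D2 interval. The exception was the region near Gm7065, chr13:64726392-64726636, whose sequence is shown above. It gave 0.366, 0.549 and 0.175 CPM in B6 against 1.32 and 1.4 in B6-13D2, and 0.312, 0.152 and 0.344 CPM in D2-13B6 against 0.882, 1.34 and 0.745 in D2. Every library with the D2 interval was above every library with the B6 interval. The log2 fold change was 1.94 ± 0.47 (SE) on the B6 background and 1.87 on the D2 background.

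The member farthest towards the distal end, chr13:64996764-64997485, had the most reads among the distal changed members that share sequence. It is intergenic, 1449 bp from the nearest annotated start, that of Gm6888. It gave 3.13, 3.42 and 3.85 CPM in B6, 0.364 and 0.299 in B6-13D2, 1.14, 1.33 and 1.55 in D2-13B6 and 0.467, 0.268 and 0.172 in D2. The 4 groups fell into 3 levels, with B6 highest, D2-13B6 in the middle and the 2 lines with the D2 interval lowest and overlapping. Its log2 fold change was -3.36 ± 0.41 (SE) in B6-13D2 against B6 and -2.11 in D2 against D2-13B6, and D2-13B6 stayed below B6 by a log2 fold change of -1.37 (adjusted p = 1.72e-05).

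The near-identical pair shown above gave the same order at lower levels. The proximal copy, chr13:64973917-64974190, was at 1.38 ± 0.207 CPM in B6 (SD, n = 3) against 0.0498 ± 0.0705 in B6-13D2 (n = 2), and 0.567 ± 0.0860 in D2-13B6 (n = 3) against 0.0924 ± 0.0688 in D2 (n = 3). With 94 counts in B6 and 2 in B6-13D2, the ratio was 28.5, with an exact 95% counting interval of 7.68 to 239. The distal copy, chr13:64996153-64996386, had 60 counts in B6 against none in B6-13D2, and 27 in D2-13B6 against 2 in D2. With 3 counts in each library as the floor, B6-13D2 was at least 6.25-fold lower than B6. Of its 31-base words none is unique in the genome, against 12.7% in the proximal copy and 54.5% in the member beyond.

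A further 3 distal members were also lower with the D2 interval. The region chr13:64927874-64928214, in an exon or untranslated part of the predicted gene Gm4811, had 106 counts in B6 and none in B6-13D2, at least 11.9-fold lower. It gave 0.998, 2.74 and 1.36 CPM in B6, 0.312, 0.970 and 0.344 in D2-13B6 and 0, 0.107 and 0.0573 in D2, so B6 replicate 1 and D2-13B6 replicate 2 nearly met. The intergenic region chr13:64588612-64589287 had 83 counts in B6 and none in B6-13D2, at least 7.99-fold lower, and 1.24 ± 0.177 CPM in D2-13B6, which overlapped B6. D2-13B6 lay at a relative position of -0.05 there, and 8.05% of its 31-base words are unique. The intergenic region chr13:64649203-64649680 went from 1.99 ± 0.342 CPM in B6 to 0.388 ± 0.227 in B6-13D2, with 0.922 ± 0.154 in D2-13B6 against 0.422 ± 0.0748 in D2.

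At 1 of the 10 distal informative members both congenic lines lay on the side of their own background. The region chr13:64840654-64841260 gave 1.90, 1.65 and 1.58 CPM in B6 and 1.18 and 1.49 in B6-13D2, against 0.520, 0.848 and 0.413 in D2-13B6 and 0.441, 0.991 and 0.688 in D2. The libraries thus split by background, at a relative position of 0.27 for B6-13D2 and 1.17 for D2-13B6. This region was singled out after its values were seen. The other D2-like member in D2-13B6 was chr13:64649203-64649680, at 0.51, which passed the test in both exchanges.

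**Figure D3:**
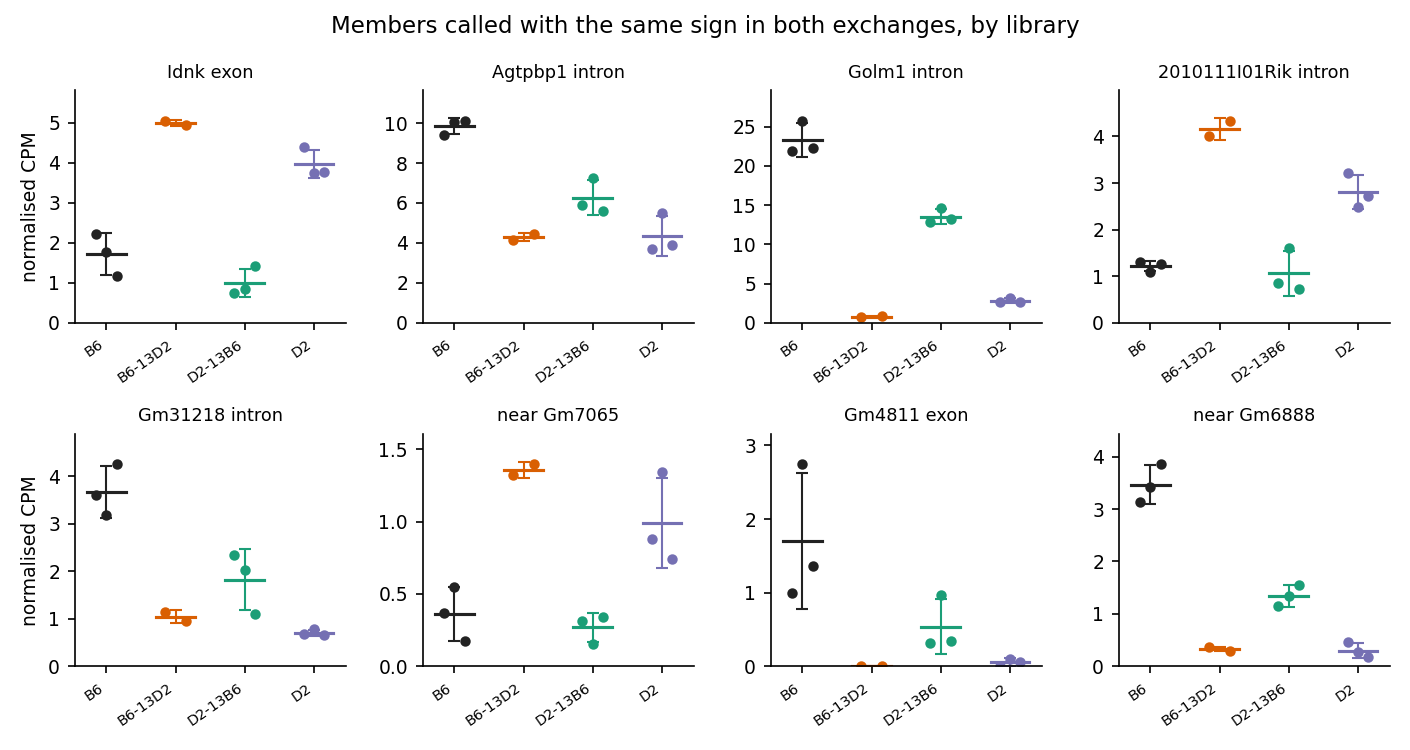
Normalised CPM of 8 members that were called with the same sign in both exchanges, in every library (points), with the group mean (line) and SD (error bars) for B6, B6-13D2, D2-13B6 and D2. The upper 4 lie before the switch and the lower 4 after it. B6-13D2 lies on the D2 side of B6 in all 8, and D2-13B6 lies on the B6 side of D2.

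Before the switch, 9 members changed with the same sign in both exchanges, so the distal 500 kb did not hold all members that followed the interval. Over the whole stretch there were 17, or 2.03% of the members against 0.194% of all regions tested. Of the 17, 7 were higher and 10 lower in the lines with the D2 interval, against 0.0891% and 0.105% of all regions tested. The comparisons share no library. On chromosome 13 outside 58 to 70 Mb there were 6 of 10412, or 0.0576%. A further 2 members, chr13:61463441-61464152 and chr13:63930206-63931075, changed in both exchanges with opposite signs. Their log2 fold changes were -1.24 and -1.11 on the B6 background and 0.84 and 0.69 on the D2 background. Another 2, chr13:60775248-60775641 and chr13:63923804-63924466, fell by 2.06 and 1.86 on the log2 scale in B6-13D2 against B6 and did not pass in D2 against D2-13B6 (-0.06 and -0.46). The count was 10 without B6-13D2 replicate 1, 9 without B6-13D2 replicate 2, 11 with a filter at a mean of 1 CPM and 12 among the 697 members with at least 50% unique words.

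The change with the most reads behind it was in the Golm1 intron, chr13:59655360-59658376 (ENSMUSG00000021556.12), 17396 bp from the nearest start of the gene. It gave 21.9, 25.7 and 22.3 CPM in B6, 0.728 and 0.847 in B6-13D2, 12.8, 14.6 and 13.2 in D2-13B6 and 2.70, 3.16 and 2.64 in D2. No group overlapped another, and B6-13D2 was below D2 itself. The log2 fold change was -4.88 ± 0.27 (SE) on the B6 background and -2.25 on the D2 background, with adjusted p-values of 8.69e-23 and 1.36e-15. The same gene's promoter region, chr13:59674740-59676177, did not follow, at 6.85 ± 0.666 CPM in B6 against 6.67 ± 0.209 in B6-13D2, and 12.9 ± 2.45 in D2-13B6 against 8.95 ± 0.887 in D2. Its log2 fold change was -0.04 in B6-13D2 against B6 (adjusted p = 0.99).

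An exon or untranslated region of Idnk, which encodes a gluconokinase, rose with the D2 interval. The region chr13:58160708-58161277 gave 2.23, 1.77 and 1.18 CPM in B6, 5.05 and 4.93 in B6-13D2, 0.753, 0.848 and 1.41 in D2-13B6 and 4.38, 3.75 and 3.78 in D2. Each line with the D2 interval was above each line with the B6 interval in every library. The log2 fold change was 1.51 ± 0.26 (SE) on the B6 background (adjusted p = 0.000167) and 2.00 on the D2 background (adjusted p = 4.9e-09).

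In an intron of Agtpbp1, which encodes an enzyme that removes glutamates from tubulin, accessibility fell with the D2 interval. The region chr13:59467551-59469381 gave 9.38, 10.1 and 10.1 CPM in B6, 4.14 and 4.43 in B6-13D2, 5.92, 7.27 and 5.61 in D2-13B6 and 3.68, 5.52 and 3.90 in D2. The groups with the D2 interval overlapped each other and lay below D2-13B6, which lay below B6. The log2 fold change was -1.20 ± 0.22 (SE) on the B6 background and -0.52 on the D2 background (adjusted p = 0.0253).

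Introns of 2010111I01Rik held a region that rose and another that fell. At chr13:63101699-63102257 the values were 1.30, 1.10 and 1.27 CPM in B6, 4.00 and 4.33 in B6-13D2, 0.857, 1.61 and 0.722 in D2-13B6 and 3.22, 2.49 and 2.72 in D2. Every library with the D2 interval exceeded every library without it, with a log2 fold change of 1.75 ± 0.28 (SE) on the B6 background and 1.4 on the D2 background. At chr13:63154754-63155132 they were 1.73, 2.5 and 1.79 CPM in B6, 0.864 and 0.797 in B6-13D2, 9.27, 11.9 and 7.60 in D2-13B6 and 3.68, 4.18 and 3.67 in D2. Here accessibility was lower with the D2 interval in both exchanges, although D2 was higher than B6 by a log2 fold change of 0.96 (adjusted p = 0.000446).

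The other 4 proximal members that followed the interval in both lines lay near Gm47269, Cts8 and Hsd17b3 and in Zfp808. The region at the start of Gm47269 rose from 0.938 ± 0.0752 CPM in B6 to 2.44 ± 0.359 in B6-13D2, with 0.526 ± 0.197 in D2-13B6 against 2.61 ± 0.0801 in D2. Near Cts8, one of the placental cathepsin genes, a region 13327 bp from its start went from 2.65 ± 0.557 CPM in B6 to 6.08 ± 1.27 in B6-13D2 with 3.39 ± 1.30 in D2-13B6 against 6.15 ± 0.126 in D2. A region in an intron of the zinc finger gene Zfp808 rose from 1.59 ± 0.143 CPM to 3.77 ± 0.310 with 0.827 ± 0.303 in D2-13B6 against 3.12 ± 0.310 in D2. Of its 31-base words 26.0% are unique. The fourth, 37610 bp from the start of Hsd17b3, a steroid dehydrogenase gene, differed in that D2 did not change against B6 (log2 fold change 0.14, adjusted p = 0.72), at 2.76 ± 0.503 CPM in B6 against 6.05 ± 1.03 in B6-13D2, and 1.81 ± 0.303 in D2-13B6 against 3.02 ± 0.527 in D2.

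At Fancc, whose product belongs to the Fanconi anaemia core complex for repair of DNA crosslinks, 2 regions fell in B6-13D2. The region chr13:63352168-63354192, within 1000 bp of an annotated start, was at 8.91 ± 0.701 CPM in B6 against 4.40 ± 0.0866 in B6-13D2, and 3.86 ± 0.143 in D2-13B6 against 4.82 ± 0.382 in D2. B6 was above the other 3 lines, with a log2 fold change of -1.02 in B6-13D2 against B6 (adjusted p = 0.00313) and 0.32 in D2 against D2-13B6 (adjusted p = 0.20). The region chr13:63329542-63331015 was at 8.86 ± 1.38 CPM in B6 against 4.67 ± 0.405 in B6-13D2, and 5.67 ± 1.24 in D2-13B6 against 4.77 ± 0.725 in D2.

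The interaction, the change in B6-13D2 against B6 minus that in D2 against D2-13B6, tested whether the 2 exchanges gave different changes. It was called in 104 members, 30 higher and 74 lower, or 12.4% against 6.54% of all regions tested (4.55% higher, 1.99% lower) and 12.3% on chromosome 13 outside 58 to 70 Mb. The split turned with the scaling, to 71 higher and 38 lower with chromosome 13 TMM factors, against 20 and 123 with total counts. In 92 of the 104 the change passed the threshold on the D2 background and not on the B6 background, and 5 passed in B6-13D2 against B6. The 5 were the Golm1 intron, chr13:63352168-63354192 at Fancc and chr13:60775248-60775641, with the pair of members of opposite signs. Without B6-13D2 replicate 1 the count was 39, without B6-13D2 replicate 2 it was 38, without D2 replicate 1 it was 60 and without D2-13B6 replicate 3 it was 161.

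A group of strain-dependent members did not follow the interval, and D2-13B6 was above D2 in them. The intergenic region chr13:58458806-58459281, 15785 bp from the start of Gm47918, gave 3.03, 1.95 and 3.11 CPM in B6, 3.00 and 2.34 in B6-13D2, 15.1, 21.2 and 11.9 in D2-13B6 and 7.03, 7.01 and 7.88 in D2. B6-13D2 overlapped B6, and both lines on the D2 background were above them. The log2 fold change was 1.41 in D2 against B6 and -1.14 in D2 against D2-13B6, and the interaction was 1.10 (adjusted p = 0.021).

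The region at the start of Ctla2a, which encodes an inhibitor of cysteine proteases, had the same order. The values at chr13:60936526-60936882 were 2.36, 1.77 and 2.5 CPM in B6, 1.32 and 2.44 in B6-13D2, 12.1, 17.0 and 9.49 in D2-13B6 and 5.37, 6.45 and 8.28 in D2. Its log2 fold change was 1.58 in D2 against B6 and -0.94 in D2 against D2-13B6.

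In 2010111I01Rik, the intronic region chr13:63140725-63141319 gave 1.86, 0.915 and 2.45 CPM in B6, 2.27 and 1.84 in B6-13D2, 13.7, 17.0 and 10.1 in D2-13B6 and 3.61, 5.70 and 5.87 in D2. It lies between the 2 regions of the same gene that changed with the same sign in both exchanges. Those 2 changed in B6-13D2 against B6, whereas here B6-13D2 overlapped B6. Its order in the other lines, with D2-13B6 above D2 and D2 above B6, was also that of chr13:63154754-63155132. The intergenic region chr13:63770886-63771557 gave 2.89, 3.48 and 3.72 CPM in B6, 2.68 and 2.24 in B6-13D2, 20.3, 30.5 and 17.7 in D2-13B6 and 8.66, 10.6 and 8.17 in D2. Its log2 fold change in D2 against B6 was 1.45 (adjusted p = 3.3e-08), and all 3 D2-13B6 libraries exceeded all D2 libraries.

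**Figure D4:**
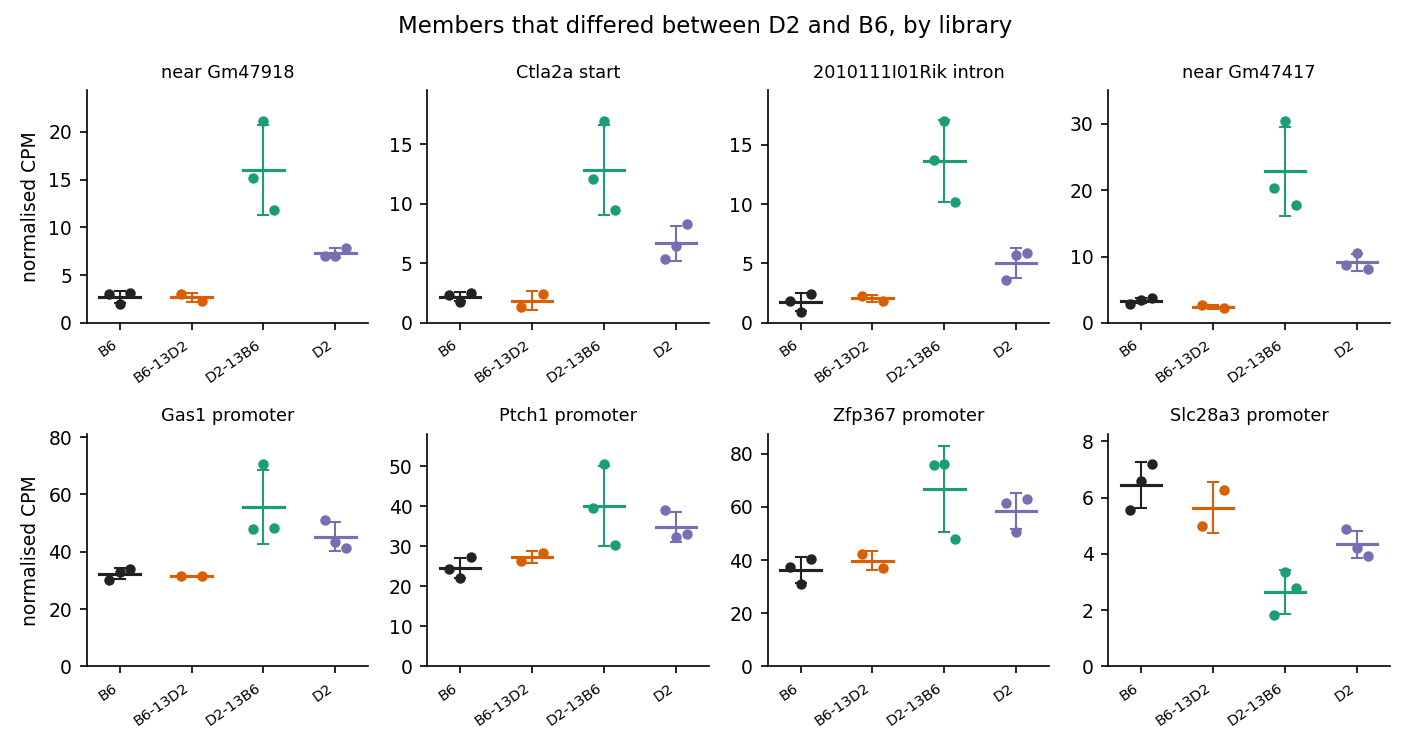
Normalised CPM of 8 members that differed between D2 and B6, in every library (points), with the group mean (line) and SD (error bars) for B6, B6-13D2, D2-13B6 and D2. The upper 4 are the members of this group described above and the lower 4 are promoter regions of listed genes. B6-13D2 lies nearer to B6 than to the D2 background in the upper 4, where all D2-13B6 libraries lie above all D2 libraries.

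Promoter regions of listed genes rarely passed the test in B6-13D2 against B6, and many differed between backgrounds. Of the listed genes, 25 had a promoter region in the table. They had 62 promoter regions in all, of which 2, both at Fancc and described above, were lower in B6-13D2 against B6, and 5 were called in the interaction. The counts that follow take only the most accessible promoter region of each gene, 23 different regions. None of these was called by edgeR or DESeq2 in B6-13D2 against B6, with 0 at an unadjusted p under 0.05. In the interaction none of the 23 was called by either tool, with 3 at an unadjusted p under 0.05, whereas total counts gave 3 lower and chromosome 13 TMM factors 1 higher. Their median log2 fold change in B6-13D2 against B6 was -0.02. In D2 against B6, 12 of the 23 were higher and 2 lower, with a median of 0.47, whereas 24.8% of all promoter regions tested were higher and 6.60% lower. Of the other 39 promoter regions of these genes, 6 were higher and 7 lower. In D2-13B6 against B6, 16 of the 23 were higher and 3 lower, with a median of 0.60. Of all promoter regions tested, 37.4% were higher and 17.2% lower. The other 39 went the other way, with 4 higher, 20 lower and a median of -0.54. In D2 against D2-13B6, 3 of the 23 were higher and 2 lower, and of the other 39, 11 were higher and 2 lower. For the 23, chromosome 13 TMM factors gave 0 and 13 and total counts 5 and 0. Promoter regions of the whole table had a median of 0.16 in D2 against B6 and the 158 members in promoter regions 0.15.

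By their most accessible promoter region, both Hedgehog pathway genes were higher in D2 than in B6. Of all promoter regions tested, which include those of low accessibility, 24.8% were. Ptch1 was also among the genes with another promoter region called in this comparison. Gas1, which encodes a co-receptor that binds the ligand at the cell surface, had a promoter region at chr13:60175401-60179073. It gave 30.1, 33.1 and 33.9 CPM in B6, 31.5 and 31.5 in B6-13D2, 47.8, 70.5 and 48.4 in D2-13B6 and 50.9, 43.3 and 41.4 in D2, with no overlap between backgrounds. Ptch1, which encodes the receptor that holds the pathway off, gave 24.5, 22.2 and 27.3 CPM in B6, 26.4 and 28.5 in B6-13D2, 39.5, 50.5 and 30.3 in D2-13B6 and 39.1, 32.2 and 33.0 in D2 at chr13:63562811-63566944. The log2 fold changes in D2 against B6 were 0.49 (adjusted p = 0.030) and 0.50 (adjusted p = 0.028). In D2 against B6-13D2 Gas1 passed (0.52, adjusted p = 0.047) and Ptch1 did not (0.34, adjusted p = 0.24).

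By their most accessible promoter region, 3 of the 4 genes listed under DNA repair were higher in D2 against B6. Of all promoter regions, which include those of low accessibility, 24.8% were. Zfp367 also stands in the zinc finger list. The promoter region of Zfp367, a zinc finger gene, had the highest mean accessibility of all members at chr13:64151872-64154542. It gave 37.5, 31 and 40.4 CPM in B6, 42.3 and 37.2 in B6-13D2, 76.0, 76.1 and 47.9 in D2-13B6 and 61.5, 50.7 and 63.1 in D2, and its log2 fold change in D2 against B6 was 0.69 (adjusted p = 0.0022). Ercc6l2, a helicase-like repair gene, and Habp4, which encodes a nucleic acid binding protein, rose by 0.47 and 0.79 on the log2 scale. The Fancc promoter region with the highest accessibility was not called in any comparison.

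The gluconeogenic genes moved differently from each other. Fbp1, which encodes fructose-bisphosphatase of liver and kidney, gave 7.29, 7.20 and 7.49 CPM in B6, 6.82 and 6.03 in B6-13D2, 3.4, 2.88 and 4.02 in D2-13B6 and 6.07, 4.90 and 4.01 in D2. It was lower in D2 than in B6 by a log2 fold change of -0.55 (adjusted p = 0.021). Fbp2, the muscle form, was 7.65 ± 0.576 CPM in B6 against 7.28 ± 0.708 in B6-13D2, and 14.4 ± 4.85 in D2-13B6 against 10.3 ± 0.791 in D2, and passed the test in D2-13B6 against B6 (log2 fold change 0.91). The difference between the genes was not tested.

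Of the genes listed under RNA and protein processing, a mixed list that includes a nucleoside transporter gene, 9 had a promoter region. By the most accessible one, 5 were higher and 1 lower in D2 against B6. Over promoter regions of any accessibility, 24.8% were higher and 6.60% lower. The 9 genes cover 8 regions, so 1 region counts for 2 of the 5. Naa35, of the NatC acetyltransferase, and Agtpbp1 share a promoter region, which rose by 0.75 on the log2 scale, and Isca1, of iron-sulphur cluster assembly, rose by 0.66. Tut7, which adds uridines to RNA ends, rose by 0.62. Slc28a3, a nucleoside transporter gene, was the lower gene, at 5.56, 6.59 and 7.18 CPM in B6, 5.00 and 6.28 in B6-13D2, 1.82, 3.36 and 2.79 in D2-13B6 and 4.88, 4.20 and 3.93 in D2 (log2 fold change -0.56 in D2 against B6, adjusted p = 0.026).

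Among cell cycle and kinase genes, the promoter region of Cdk20, a cyclin-dependent kinase gene, rose by 0.47 on the log2 scale in D2 against B6, from 37.6 ± 2.18 CPM to 52.1 ± 2.62. Dapk1, a death-associated kinase gene, passed only in D2-13B6 against B6 (0.47). The most accessible promoter regions of Cdc14b and Ntrk2 passed in no comparison. Other promoter regions of Cdc14b were called in D2 against B6, D2 against D2-13B6, D2-13B6 against B6 and D2 against B6-13D2. Of the 12 cathepsin and trophoblast genes in the stretch, only Ctsl had a promoter region in the table, and 11 had none, including Tpbpa and Tpbpb. Ctsl, a cathepsin gene of the lysosome in most cells, rose from 16.9 ± 0.643 CPM in B6 to 25.7 ± 2.46 in D2 and was 16.7 ± 0.237 in B6-13D2 (log2 fold change 0.60, adjusted p = 0.0050). The zinc finger genes Zfp934 and Zfp935 share a region, higher by 0.67 on the log2 scale in D2 against B6, in which 13.0% of 31-base words are unique.

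The members from 61 to 63 Mb stood apart in sequence and in D2-13B6, and were singled out after their values were seen. A median of 42.9% of 31-base words were unique in the 192 members there, against 100% in the other members and 99.8% on chromosome 13 outside the stretch. In D2 against D2-13B6, 113 of the 192 changed, 109 higher and 4 lower, with a median log2 fold change of 0.89. With chromosome 13 TMM factors it was 67 higher and 6 lower, with a median of 0.55, and among the other 647 members that scaling gave 33 higher and 174 lower, with a median of -0.11. In B6-13D2 against B6, 3 of the 192 changed. Of the 104 interaction calls, 41 lay here.

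The counts in these members made up a smaller share of chromosome 13 in every D2-13B6 library. It was 1.07%, 1.11% and 1.07% in D2-13B6, 1.53%, 1.63% and 1.62% in B6, 1.68% and 1.71% in B6-13D2 and 1.64%, 1.60% and 1.59% in D2. The share is taken within chromosome 13, so a chromosome-wide shift does not enter it. Members with under 50% unique words there had a median log2 fold change of 0.93 in D2 against D2-13B6, and those with at least 50% had 0.75. Low-uniqueness regions on chromosome 13 outside 58 to 70 Mb had 0.57 and the others there 0.36. The part of read placement in this difference was not tested.

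The intergenic region chr13:61771039-61773916 was one of the clearest members of this group. It gave 13.7, 14.6 and 14.5 CPM in B6, 14.6 and 14.9 in B6-13D2, 4.34, 5.42 and 4.44 in D2-13B6 and 13.6, 13.5 and 12.8 in D2. D2-13B6 was far below the other 3 lines, and 28.6% of the region's 31-base words are unique. The interaction was -1.45 on the log2 scale (adjusted p = 0.00042).

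**Figure D5:**
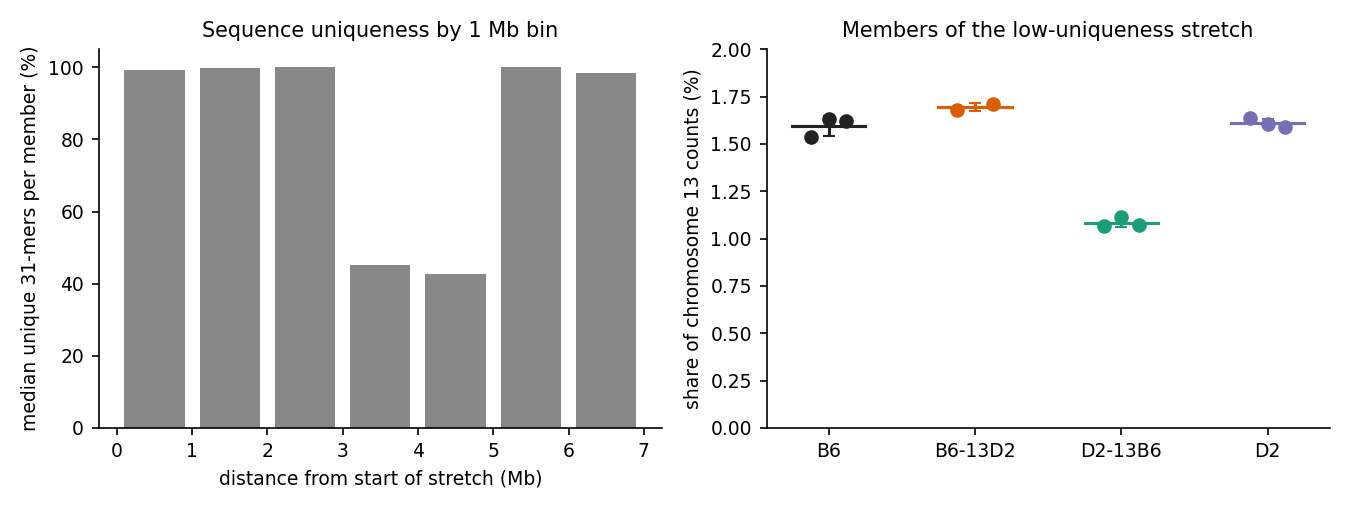
Left, the median percentage of 31-base words of a member that are unique in the genome, for each 1 Mb bin with distance from the start of the stretch. Right, the share of each library's chromosome 13 counts in the 192 members from 61 to 63 Mb (points), with the group mean (line) and SD (error bars). The 3 D2-13B6 libraries sit between 1.07% and 1.11%, below the other 8.

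No pair of lines passed a test on the total share of counts in the stretch, a design too small to pass one. The members held 7.66% ± 0.0912 of chromosome 13 counts in B6 (SD, n = 3) against 7.31% ± 0.185 in B6-13D2 (n = 2), and 7.57% ± 0.0534 in D2-13B6 (n = 3) against 7.29% ± 0.258 in D2 (n = 3). Over 5 pairs of lines, two-sided exact permutation tests gave p-values from 0.1 to 1, and Benjamini-Hochberg adjusted values of 0.25 in 4 pairs and 1 in D2 against B6-13D2. The smallest p these tests allow is 0.1 with 3 libraries against 3 and 0.2 with 3 against 2. The last 500 kb took 0.133% ± 0.00434 of chromosome 13 counts in B6 against 0.0959% ± 0.000302 in B6-13D2, and 0.0650% ± 0.0112 in D2-13B6 against 0.0792% ± 0.00378 in D2.

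In what the rule did not use, the members resembled the table as a whole. Their median width was 553 bp against 547, and their median GC content 48.3% against 48.1%. Promoter regions made up 18.8% of members and 15.4% of all regions, introns 38.5% and 39.3%, and intergenic regions 38.5% and 40.5%. Median accessibility was 1.75 CPM against 1.85. These are descriptions with no test.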

How the data were processed

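The values used are whole-number counts per region in 1 table that the authors deposited without normalization. Per the file headers, duplicate and mitochondrial reads had been removed. The submitters' processing notes name Trimmomatic 0.39, BWA 0.7.5, Picard 2.0.1, MACS 1.4.2, bedtools 2.9.2, edgeR 3.34.1 and mm10, without roles. How reads that map to several places were treated, any shift for the transposase, and whether starts count from 0 or 1 are not given in the sources used here. Reads of D2 DNA were placed on a B6 genome build, which can lower counts where the strains differ, and its effect was not tested. The members, gene lists and tests were chosen with earlier results of these data known.

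Counts were tested with edgeR 4.0.16 in R 4.3.3: TMM, filterByExpr by group, glmQLFit (robust) and glmQLFTest in a single fit of 11 libraries, with a Benjamini-Hochberg adjustment over 246840 regions. Called means an adjusted p under 0.05. The 5 pairwise comparisons and the interaction, (B6-13D2 minus B6) minus (D2 minus D2-13B6), were made. The script was tested on simulated data. CPM values use TMM library sizes, and relative positions use log2 CPM with a prior count of 2. Annotation was GENCODE M21, and a promoter region lay within 1000 bp of a start site. A 31-base word was unique if it occurred once on both strands of the GRCm38 chromosomes. Copies were aligned with blastn. Alternatives were other scalings, filters, DESeq2 1.42.0, a minimum fold, a replicate block and leaving out libraries. Named members were, per 1 Mb bin, the strongest strain difference and the strongest change in both exchanges, plus the members beside the switch, the 4 strongest interactions, the 3 most accessible and the promoters of listed genes. The other members called in B6-13D2 against B6 were named after their values were seen. Libraries of a group were compared pairwise, and over 10 pairs chi-square divided by its degrees of freedom lay between 2.06 and 6.33, so none was a copy. Intervals and floors cover counting error only.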

Additional observations from a re-analysis of the deposited data

Results flagged for a closer look

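The change in B6-13D2 against B6 differed from that in D2 against D2-13B6 in 104 members, as tested by edgeR's interaction term (adjusted p under 0.05). This was 12.4%, against 12.3% on chromosome 13 outside 58 to 70 Mb and 6.54% of all regions tested, and 102 of the 104 lay before the last 500 kb. Leaving out 1 library moved the count between 38, without B6-13D2 replicate 2, and 161, without D2-13B6 replicate 3. The D2-13B6 libraries stood apart in marker accessibility, and the part of this in the count was not tested. An effect of the interval and a difference between cell lines cannot be told apart here. The named members among the 104 had interaction log2 fold changes of 1.10 at chr13:58458806-58459281, -2.63 in the Golm1 intron at chr13:59655360-59658376, -1.39 at chr13:61717962-61719061 and -1.45 at chr13:61771039-61773916. They also had 1.93 at chr13:63066577-63067066 and 1.63 at chr13:63140725-63141319, both in introns of 2010111I01Rik. At chr13:61717962-61719061 the values were 2.23 ± 0.295 CPM in B6 (SD, n = 3) against 3.77 ± 0.967 in B6-13D2 (n = 2), and 1.63 ± 0.309 in D2-13B6 against 7.11 ± 0.638 in D2 (n = 3 each). At chr13:63066577-63067066 they were 1.07 ± 0.126, 1.51 ± 0.333, 7.25 ± 2.68 and 2.70 ± 0.636 CPM in the same order.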

How the results depend on the processing

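A minimum fold of 1.5 left 10 members in B6-13D2 against B6, 117 in D2 against D2-13B6, 56 in D2 against B6, 254 in D2-13B6 against B6, 36 in D2 against B6-13D2, 8 in the interaction and 9 with the same sign in both exchanges. A fit with only the contrast's libraries gave 35 in B6-13D2 against B6, and a filter at a mean of 1 CPM gave 11 with the same sign. Leaving out 1 library gave ranges of 10 to 26 (B6-13D2 against B6), 258 to 361 (D2 against D2-13B6), 166 to 256 (D2 against B6), 401 to 464 (D2-13B6 against B6), 74 to 188 (D2 against B6-13D2), 38 to 161 (interaction) and 9 to 18 (same sign). With a minimum of 4-fold all 9 informative members, from 59655360 on, lay past the boundary in both lines, so none was found in the stretch. The switch of D2-13B6 moved to 64927874 with total counts. Leaving out 1 library of D2-13B6 gave 64507069 to 64973271, the latter without replicate 2. The difference in share of counts between D2 and B6-13D2, -0.0131 points, turned to 0.132 without D2 replicate 3 and 0.118 without B6-13D2 replicate 2, in a range of -0.144 to 0.132. The cause of these changes was not tested. Total counts moved the whole-table median (log2) by 0.17 in D2 against D2-13B6, -0.13 in D2 against B6, -0.29 in D2-13B6 against B6 and -0.13 in D2 against B6-13D2. Of 118 named values under 2349 alternatives, none reversed and 252 alternatives lost the call. With the replicate block the counts were 21, 344, 232, 465, 173, 103 and 16 in the order above. The replicate numbers do not pair libraries, since deviations of same-numbered libraries correlated at -0.05 to 0.07 and those of others at -0.15 to 0.16. Groups of 2 or 3 libraries of 1 cell line limit the precision of all values.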
